A study of Homo sapiens and Mus musculus with 12 samples.

Results

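LSD1 and GFI1 binding was compared in K562 control cells by classing their ChIP-seq peaks into sites bound by LSD1 only, by GFI1 only or by both. K562 is a human leukemia line with erythroid and megakaryocytic features, and the control cells carried a non-targeting sgRNA (sg-NT). Each protein was precipitated once from these cells, giving 1 LSD1 library and 1 GFI1 library. All 6548 LSD1 peaks and all 498 GFI1 peaks were used, out of 12513 peaks in the 5 peak lists of the series. Peaks with at least 1 bp in common were taken as the same site. This gave 6656 sites, of which 6158 were LSD1 only, 390 were bound by both and 108 were GFI1 only. Every shared LSD1 peak overlapped exactly 1 GFI1 peak. With 1 library a side, differences between the lists have no replicate check, and no test between libraries was made. The 95% Wilson intervals given for shares cover counting error only. Because a list holds only regions past the calling threshold, "LSD1 only" means that no GFI1 peak was called, and the reverse for "GFI1 only".

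LSD1 is a histone demethylase that removes methyl groups from lysine 4 of histone H3 and works in the CoREST complex with histone deacetylases. GFI1 is a zinc finger repressor that recognises DNA sites with an AATC core and recruits LSD1-CoREST through its SNAG domain. Its paralogue GFI1B recognises the same DNA and acts in red cell and platelet precursors. GATA1 and RUNX1 are transcription factors of the same lineages. Whether the antibodies bound other proteins as well was not tested here.

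The reference sequence at some summits illustrates the letters that are counted further below. Most windows were picked for the letters they hold, so they do not show how often a class holds them. The 60 bp at some of the strongest sites are given on the plus strand of GRCh38. The first set holds shared sites, centred on the GFI1 summit, with the GFI1 core AATCAC or its reverse complement in capitals. They are shown because this core was several times as frequent at shared sites as at sites of LSD1 alone.
IBA57, chr1:228164640-228164699: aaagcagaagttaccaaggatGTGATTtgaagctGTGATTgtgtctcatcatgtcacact
FNBP1, chr9:130043755-130043814: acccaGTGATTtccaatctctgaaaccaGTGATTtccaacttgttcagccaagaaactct
CXADR, chr21:17454347-17454406: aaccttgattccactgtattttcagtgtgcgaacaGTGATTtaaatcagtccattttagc
SIMC1, chr5:176197469-176197528: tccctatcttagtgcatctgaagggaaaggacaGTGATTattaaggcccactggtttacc
Many of the strongest shared sites did not hold it. The next pair are shared sites without the full core, picked because the letters agataa or ttatct of a GATA site can be read there. Other strong shared windows, such as those at PI16, CEBPE and CRY2, held neither AATCAC nor AGATAA. Over all 390 shared sites, AATCAC was in 11.3% and AGATAA in 15.6% of 50 bp windows at the GFI1 summit.
SPTAN1, chr9:128558488-128558547: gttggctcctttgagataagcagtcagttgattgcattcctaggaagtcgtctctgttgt
TIGAR, chr12:4320910-4320969: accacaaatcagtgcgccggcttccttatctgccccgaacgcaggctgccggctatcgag
The third set are strong LSD1-only sites, centred on the LSD1 summit. Capitals mark the letters AAAATGGG or their reverse complement, which recurred at LSD1-only summits and were chosen after the sequences had been read. Among all LSD1-only sites, 6.51% of 100 bp windows held them, against 0.715% of windows 2 kb away.
OSCAR, chr19:54102438-54102497: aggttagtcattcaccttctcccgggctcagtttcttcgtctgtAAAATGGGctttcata
VPS37D, chr7:73667429-73667488: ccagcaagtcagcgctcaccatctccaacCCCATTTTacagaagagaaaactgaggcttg
RFX1, chr19:14005530-14005589: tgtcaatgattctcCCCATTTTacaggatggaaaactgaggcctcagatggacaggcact
The last set are GFI1-only sites, with the GFI1 core in capitals where present. Among all GFI1-only sites, 5 of 108 windows of 50 bp held this core. The HELT window is a short unit repeated in tandem.
OCIAD2, chr4:48900098-48900157: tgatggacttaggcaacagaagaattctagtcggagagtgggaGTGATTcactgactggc
PITX1, chr5:135058666-135058725: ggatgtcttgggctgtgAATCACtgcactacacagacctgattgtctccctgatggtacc
HELT, chr4:184967116-184967175: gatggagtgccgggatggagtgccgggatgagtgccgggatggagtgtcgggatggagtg

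Most GFI1 sites were LSD1 sites, and few LSD1 sites were GFI1 sites. The shared sites made up 78.3% of the GFI1 peaks (interval 74.5 to 81.7) but 5.96% of the LSD1 peaks (interval 5.41 to 6.56). The LSD1 list held the larger number of peaks, so the 2 shares have different ceilings. When the LSD1 list was limited to as many of its strongest peaks as the GFI1 list holds, 166 sites were shared, or 33.3% of each list. The summits had a median of 13 fragments in the LSD1 library (range 6 to 93) and 11 in the GFI1 library (range 5 to 80), so weak sites of either protein can fall under the threshold.

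Both lists lost partners toward the weak end, as the plot of shares by strength shows. Strength is the −log10 p of the peak caller, and the LSD1 list was split by it into 10 groups and the GFI1 list into 4 groups. Among the weakest LSD1 group, 0.612% had a GFI1 peak (4 of 654, interval 0.238 to 1.56). The share was 10.1% in the group before the strongest and 29.3% in the strongest (192 of 655, interval 26.0 to 32.9). The strongest LSD1 sites did not go on to full sharing, since 5 of the strongest 10, 25 of the strongest 50 and 48 of the strongest 100 LSD1 peaks had a GFI1 peak. The GFI1 list was different at its top. Its strongest 50 peaks all had an LSD1 peak, as did 97 of the strongest 100. Of the GFI1 peaks in the strongest of 4 groups, 96.0% were shared (interval 91.0 to 98.3), against 55.6% in the weakest (interval 46.9 to 64.1).

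Shared sites were the stronger part of both lists. In the LSD1 list the median −log10 p was 24.4 at shared sites (95% interval of the median 22.4 to 27.1) and 11.1 at LSD1-only sites (11.1 to 11.3). The corresponding median numbers of fragments were 23 and 12, and the median widths 546 and 343 bp. In the GFI1 list the median −log10 p was 12.2 at shared sites (11.6 to 13.0) and 8.16 at GFI1-only sites (7.54 to 8.86), with 12 and 9 fragments. A −log10 p under 8 was found for 49.1% of the GFI1-only peaks and 14.4% of the shared GFI1 peaks. The classes overlapped widely, however. The strongest LSD1-only peak, 218 bp from a transcript start of OSCAR, a receptor of osteoclasts and myeloid cells, had a −log10 p of 153 with 90 fragments, and its nearest GFI1 summit lay 1600019 bp away. Of the LSD1-only peaks, 490 exceeded the median strength of the shared ones (7.96%). No GFI1-only peak had a −log10 p above 21.4.

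The LSD1-only sites lay at promoters more often than the shared ones. Of the LSD1-only summits, 29.1% were promoter summits, at most 1000 bp away from where a transcript of a protein-coding gene starts (1791 of 6158, interval 28.0 to 30.2). At the shared sites 15.9% did (62 of 390, interval 12.6 to 19.9), with the same count at the LSD1 and the GFI1 summits, and at the GFI1-only sites 13.9% (15 of 108, interval 8.60 to 21.7). The intervals of the shared and LSD1-only sites are apart, and those of the shared and GFI1-only sites overlap. Introns held 33.1% of the LSD1-only, 41.0% of the shared and 36.1% of the GFI1-only summits. Outside genes lay 25.3%, 27.7% (GFI1 summits) and 31.5%. Exons held few summits of any class, at most 1.88%. Read from the LSD1 list, 3.35% of the promoter peaks (62 of 1853, interval 2.62 to 4.27) and 6.99% of the other peaks (328 of 4695, interval 6.29 to 7.75) had a GFI1 peak. The gap was also present in the strongest of the 10 LSD1 groups, where 14.9% of promoter peaks (26 of 175, interval 10.3 to 20.9) and 34.6% of the others (166 of 480, interval 30.5 to 38.9) were shared. For GFI1 peaks the place made little difference, since 80.5% of promoter peaks and 77.9% of the others were shared and the intervals overlap.

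The same order was seen in the distance to the nearest such transcript start. The median was 5580.5 bp at LSD1-only sites (95% interval of the median 5220 to 6190), 11055.5 bp at the shared GFI1 summits (8644 to 14165) and 16974.5 bp at GFI1-only sites (11799 to 23171). Within 100 bp of a start lay 6.64%, 3.33% and 2.78% of the summits, and beyond 50 kb lay 13.5%, 17.4% and 25.9%. Of the 108 GFI1-only peaks, 6 lay side by side in the first 10 Mb of chromosome 21, over 1.5 Mb from the nearest start, TPTE. Without that region the GFI1-only median was 15370 bp, and 79.2% of the GFI1 peaks were shared. Sites rich in CpG made up 19.5% of the LSD1-only sites, against 8.46% of the shared (GFI1 summits) and 9.26% of the GFI1-only sites. Outside promoters, these shares were 7.47%, 4.27% and 6.45%.

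At the shared sites, the 2 summits mostly coincided within the width of a peak. The median distance between them was 45.5 bp. It was at most 25 bp at 33.6% of the sites, at most 100 bp at 78.2% and at most 200 bp at 90.8%, and the largest was 1406 bp. The LSD1 peak was the wider one at 341 of 390 sites. Sites of a single protein were seldom near misses. Of the 108 GFI1-only summits, 2 lay within 500 bp of an LSD1 summit and 12 within 5 kb, and the median distance was 83950.5 bp.

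Strengths agreed moderately at the shared sites. Across the 390 sites, Spearman's rho of the LSD1 and GFI1 −log10 p was 0.51 and Pearson's r of their logarithms 0.55. These are correlations across sites of 2 libraries, given as a description, and sites are not replicates. Both libraries come from the same line of cells. The rho was 0.40 at the 62 promoter sites and 0.54 at the 328 others. With the shared sites split into 4 groups by GFI1 strength, the median LSD1 −log10 p was 39.7 in the strongest group, then 28.4 and 19.9, and 16.6 in the weakest. Of the 97 sites in the strongest GFI1 group, 54 were also in the strongest of 4 LSD1 groups and 8 in the weakest. LSD1 had the larger −log10 p at 346 sites and GFI1 at 44. After dividing the fragments by the lowest background of each library, 0.630 for LSD1 and 0.451 for GFI1, the ratio of LSD1 to GFI1 had a median of 1.30 and ran from 0.649 to 2.46 over the central 90% of sites. The antibodies differ, so this ratio says nothing of the relative amount of the proteins.

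The strongest shared site by GFI1, in SPTAN1, a spectrin gene, had a −log10 p of 149 for GFI1 and 152 for LSD1. Next came sites at IBA57 (67.8 and 85.7), PI16 (66.03 and 129) and TIGAR (63.7 and 108), of which those at PI16 and TIGAR were promoter sites. The fifth lay 6372 bp from the start of CEBPE, a transcription factor of granulocytes, with 54.6 for GFI1 (38 fragments) and 107 for LSD1 (70 fragments). The sixth, 20386 bp from the start of CRY2, a circadian repressor, had a GFI1 −log10 p of 49.4 (34 fragments) and an LSD1 −log10 p of 89.2 (59 fragments). Further down, the site at NR1H2, which encodes the liver X receptor beta, had 46.7 and 65.5. The site in intron 19 of CLEC16A, a gene of endosomal and mitochondrial turnover, had 45.9 and 67.3 with the summits 7 bp apart. Both libraries ranked 6 of the same sites among their strongest 10 shared ones. Other sites were strong for 1 protein only. In intron 1 of TANGO2 the LSD1 peak had a −log10 p of 68.9 with 67 fragments, while GFI1 had 8.90 with 14 fragments. In TMPRSS9, a serine protease gene, they were 47.3 and 6.29. The opposite held upstream of CXADR, an adhesion receptor gene, with 39.3 for GFI1 and 14.01 for LSD1. The largest difference in rank was at a 5928 bp wide GFI1 peak on chromosome 21 (8988845 to 8994772), with 47.2 for GFI1 and 10.3 for LSD1, where the 6 GFI1-only peaks also lay.

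The 10 strongest LSD1-only sites were mainly at transcript starts. This did not hold for strength across the class. The median −log10 p of LSD1-only peaks was 10.1 at promoters and 11.3 both in introns and outside genes. After OSCAR came VPS37D (−log10 p 114, an ESCRT subunit), EARS2 (106, a mitochondrial tRNA synthetase), a pair of sites of PDE4A (97.9 each, a cAMP phosphodiesterase) and CDH15 (95.9, a cadherin). NUCKS1 had 90.4 and UBE2L3, a ubiquitin-conjugating enzyme, 84.7 with 93 fragments. The fold ratio at UBE2L3 was the lowest of the 10, at 16.4 against 52.7 at OSCAR. Of these 10 strongest sites, those in CDH15 and SULT2B1 lay in introns beyond 1000 bp of a start. The strongest GFI1-only sites were weaker and mostly beyond 1000 bp of a start, some of them only just. The first was in intron 1 of PPP1R13B, 1019 bp from a start (−log10 p 21.4, 19 fragments). The next lay 110792 bp from the nearest start, that of LIFR (21.1, 17 fragments), and 51344 bp from the start of HELT (21.04, 18 fragments). The site in OCIAD2 lay 2280 bp from a start (16.8, 15 fragments), and that in NAGS 1098 bp. A promoter site of HDAC7, a histone deacetylase, 27 bp from a start, had 13.8 with 12 fragments.

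Letters that GFI1 recognises were enriched at shared summits and not at LSD1-only summits. The core AATCAC, on either strand in the central 50 bp, was in 11.3% of the shared GFI1 windows (44 of 390, interval 8.51 to 14.8) against 3.59% of windows 2 kb away, a ratio of 3.14. At the LSD1 summits of these sites it was in 7.44%. At LSD1-only summits it was in 2.16% (interval 1.83 to 2.55) against 2.29%. At GFI1-only summits it was in 4.63% (5 of 108, interval 1.99 to 10.4) against 2.78%, and the intervals overlap. The shorter AATC, which includes AATCAC, was in 49.2% of the shared windows (interval 44.3 to 54.2), 38.0% of the GFI1-only (interval 29.4 to 47.4) and 26.4% of the LSD1-only (interval 25.4 to 27.6), with 28.3%, 28.7% and 28.0% in the background. Among all RefSeq promoters of GRCh38, 1.95% of 50 bp windows held AATCAC and 20.99% AATC. The share with AATCAC followed GFI1 strength, with 17.5% in the strongest of 4 groups of shared sites, 16.3% and 7.22% in the next ones and 4.08% in the weakest. Turned round, LSD1 peaks with AATCAC at the summit had a GFI1 peak in 17.9% of cases (29 of 162, interval 12.8 to 24.5). Those without it had one in 5.65% (interval 5.11 to 6.25). The peaks with AATCAC were also stronger, with a median LSD1 −log10 p of 13.9 against 11.3. In the strongest of 10 LSD1 groups the shares were 41.7% (10 of 24, interval 24.5 to 61.2) and 28.8% (182 of 631, interval 25.4 to 32.5). There the intervals overlap.

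The GATA letters AGATAA were enriched at shared and at LSD1-only summits, more so at the shared ones. They were in 15.6% of the shared GFI1 windows (61 of 390, interval 12.4 to 19.6), 6.10 times the background, in 7.39% of the LSD1-only windows (interval 6.76 to 8.07), 3.05 times, and in 7.41% of the GFI1-only windows (8 of 108, interval 3.80 to 13.9) against 2.31% (5 of 216, interval 0.993 to 5.30), where the intervals overlap. At the LSD1 summits of the shared sites they were in 13.6% (53 of 390, interval 10.5 to 17.3), 5.05 times the background. At LSD1-only promoters the ratio was 1.41, against 3.79 outside promoters. In the strongest of 10 LSD1 groups, 41.6% of the peaks with AGATAA were shared (interval 31.2 to 52.7). Of those without it 27.7% were (interval 24.2 to 31.5), and the intervals overlap. The RUNX letters TGTGGT were in 5.90% of the shared GFI1 windows (interval 3.96 to 8.69) against 3.59% in the background (interval 2.495 to 5.14), and the intervals overlap. At the LSD1 summits of the same sites they were in 10.3% (interval 7.62 to 13.7) against 4.23%. At GFI1-only summits they were in 7.41% (8 of 108, interval 3.80 to 13.9) against 0.926% (2 of 216, interval 0.254 to 3.31), and at LSD1-only summits in 5.41% (interval 4.87 to 6.00) against 3.69%. The AP-1 letters TGANTCA were in 4.62% of shared GFI1 windows against 1.54%. The letters GAGGAAGT, a site of SPI1, were in 2 of the 390 shared GFI1 windows. At LSD1-only summits they were in 0.309%, close to the background of 0.276%. The ETS letters CCGGAAG were in 0 of 390 shared GFI1 windows. At LSD1-only summits they were in 0.422% (interval 0.288 to 0.618) against 0.235% (interval 0.164 to 0.338), and the intervals overlap. At LSD1-only promoters they were in 1.06% (interval 0.680 to 1.65) against 0.251% (interval 0.132 to 0.477). Among all RefSeq promoters the share was 1.51%. A match is a description of the letters and not of a bound factor.

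Genes of the red cell lineage often had LSD1 sites, and 1 gene in each of their lists had a GFI1 site. A gene was counted when a summit lay in it or within 10 kb, so long genes are counted more easily. Of 20007 protein-coding genes, 23.3% had an LSD1-only site, 1.74% a shared site and 0.395% a GFI1-only site, and 24.2% had any LSD1 and 2.13% any GFI1 site. Within 50 kb, 39.8% had an LSD1-only and 3.89% a shared site, and within 1 kb of a transcript start 9.19% and 0.315%. Of 20 transcription factors of erythroid, megakaryocytic and stem cells, 14 had an LSD1-only site and 1 a shared site. LDB1, a cofactor of the GATA1 and TAL1 complex, had an LSD1-only site in intron 1 with a −log10 p of 43.8. NFE2, a factor of globin and platelet genes, had one of 52.5 upstream, and GFI1B had 6 LSD1-only sites with the strongest at 39.2. A shared site with the GFI1 core lay 17679 bp downstream of a start of GFI1B, outside the 10 kb flank (33.7 for LSD1, 11.6 for GFI1). GATA1 was counted with 2 LSD1-only sites of 14.01 each. The first lay 491 bp upstream of its start. The second lay 14324 bp downstream of that start, past the end of the gene and at the promoter of another gene. The shared site was in intron 3 of ZFPM1, which encodes the GATA1 partner FOG1, with 33.7 for LSD1 and 10.2 for GFI1. Of 25 globin, heme and red cell membrane genes, 16 had an LSD1-only site, such as SPTB (25.1), a spectrin gene, and 1, ANK1, a shared site. The ANK1 site was weak for both proteins, with 6.45 for LSD1 (7 fragments) and 5.10 for GFI1 (5 fragments). Its GFI1 peak was close to the calling threshold.

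The other lists had LSD1-only sites at smaller shares of their genes than the red cell lists, and shared sites at 0 to 2 genes each. Their LSD1-only shares ran from 12% (ribosomal protein genes) to 46.7% (cell cycle regulators), against 23.3% of all protein-coding genes. The myeloid transcription factors (20%) and the textbook GFI1 targets (25%) were near the share of all genes. A shared site was at 1.74% of all protein-coding genes. Of 15 myeloid transcription factors, 3 had an LSD1-only site (CEBPA, JUNB and MITF) and CEBPE a shared one. Of 12 granule protein genes, 4 had LSD1-only sites (PRTN3, ELANE, AZU1 and LCN2), and no called GFI1 peak lay at any of the 12. From signal tracks of these cells, the paper describes sites near PRTN3 as occupied by both proteins. Signal tracks were not examined here, so GFI1 signal under the calling threshold is not covered. PRTN3, ELANE and AZU1 are neighbours and share sites. Of 15 genes of the LSD1-CoREST complex, 6 had LSD1-only sites, among them KDM1A, the gene of LSD1 (6.45), and RCOR1 (22.7), and GSE1 also had a shared site (41.4 for LSD1, 8.86 for GFI1). Of 16 GFI1 targets known from textbooks, 4 had an LSD1-only site and 2 a shared one. The latter included a site at the promoter of ID2, an inhibitor of bHLH factors (16.8 for LSD1, 13.0 for GFI1). Of 15 cell cycle regulators, 7 had LSD1-only sites, and upstream of E2F1 lay a shared site (27.3 and 17.5). Of 25 ribosomal protein genes, 3 had LSD1-only sites and none a GFI1 site. GFI1-only sites lay at 0 genes of any of the lists. Beyond the 10 kb flank, 3 GFI1 peaks had a listed gene as the nearest start, namely the shared site of GFI1B, a shared site 34568 bp from SLC25A37, a mitochondrial iron carrier gene (35.8 for LSD1, 15.3 for GFI1), and a GFI1-only site 18423 bp from LMO2 (5.07).

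The classes were also set against the other peak lists. These held 3461 GFI1 and 1846 SPI1 peaks of THP1 cells, and 160 GFI1 peaks of K562 cells with the sgRNA against LSD1. The shares below therefore have different ceilings and cannot be compared between lists. With 160 peaks, the last list could match only a part of the control GFI1 sites. GFI1 peaks of THP1 cells, a monocytic leukemia line, lay at 17.2% of the shared sites (67 of 390, interval 13.8 to 21.2), 13.0% of the GFI1-only sites (14 of 108, interval 7.88 to 20.6) and 3.78% of the LSD1-only sites (233 of 6158, interval 3.34 to 4.29). At the promoters the shares were 38.7% (24 of 62), 26.7% (4 of 15) and 6.64% (119 of 1791). The share of shared sites with a THP1 peak was 26.8% in the strongest of 4 GFI1 groups and 9.18% in the weakest. SPI1 peaks of THP1 cells lay at 1.28% of the shared (5 of 390), 0.698% of the LSD1-only (43 of 6158) and 0 of 108 GFI1-only sites, for which the upper limit is 3.43%. In K562 cells with the sgRNA against LSD1, GFI1 peaks were called at 11.8% of the shared sites of the control cells (46 of 390, interval 8.96 to 15.4), 4.63% of the GFI1-only sites (5 of 108, interval 1.99 to 10.4) and 0.406% of the LSD1-only sites (25 of 6158, interval 0.275 to 0.599). At the shared sites this share was 26.8% in the strongest of 4 GFI1 groups and 4.08% in the weakest.

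LSD1 peaks were densest on chromosome 19, with 749 peaks or 12.8 per Mb, and 2.80% of them had a GFI1 peak (interval 1.84 to 4.25). On chromosome 1 there were 819 peaks, or 3.29 per Mb, and 6.96% had one (interval 5.41 to 8.91). The X chromosome held 24 LSD1 and 2 GFI1 peaks.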

How the data were processed

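ChIP-seq of K562 cells with a non-targeting sgRNA was analysed, 1 library for LSD1 and 1 for GFI1, from 5 μg antibody per ChIP. Per the submitters' processing notes and the study's methods, the tools were Trim Galore 0.6.1 for trimming, Bowtie2 2.5.4 for mapping against GRCh38, Picard 3.1.0 for duplicates and MACS2 2.2.9.1 for peaks of each library, with blacklisted regions left out. The lowest −log10 p was 5.01 in the LSD1 list and 5.07 in the GFI1 list. Use of input as the MACS2 control is not given in the sources used here. The authors deposited a fold ratio at the summit for each peak. They deposited its p-value and q-value as −log10 values, and a score that was not used.

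Fragment numbers were solved from fold and p (pseudocount 1); a whole number, within 0.001, was found for 100% of peaks. Read totals are unknown, so fragments over summits stand for depth. Places come from GENCODE release 44. Promoter, motif and gene windows are given with the results. Sites were rich in CpG when the central 200 bp had over 50% GC and an observed to expected CpG ratio above 0.6. Repeat masking was not in the genome used, so the planned share of masked bases was not computed. Sites were named as the 10 strongest per class, the 5 shared sites with the largest rank difference each way, and sites at listed genes. FNBP1, SIMC1, RFX1 and PITX1 are shown only for their sequence. The members and lists were chosen with earlier results of these data known. Overlap, motif and fragment steps were tested on simulated data. Python 3.11.15, scipy 1.17.1, pysam 0.24.0 and samtools 1.23.1 were used. Some named sites are not reported here.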

Additional observations from a re-analysis of the deposited data

How the results depend on the processing

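Of 150 values recomputed under other settings, 95 stayed within the interval of the reported value, or within 1.5 times a count. The 6 recomputed correlations were positive. The class sizes moved at a −log10 p of at least 8 (61 GFI1-only sites) and with the LSD1 list limited to the strongest peaks (166 shared, 332 GFI1 only and 332 LSD1 only, with 33.3% of either list shared). The share of GFI1 peaks with LSD1 was 84.3% at a −log10 p of at least 8 and 71.1% with summits at most 200 bp apart, where 5.41% of LSD1 peaks were shared. With a promoter distance of 5000 bp, promoters held 48.1% of LSD1-only, 33.8% of shared and 28.7% of GFI1-only summits, and with the starts of all transcripts 35.4%, 26.4% and 23.1%. With all starts the median distances were 2832.5, 4614.5 and 5099.5 bp. Among LSD1-only sites with a −log10 p from 8 upward, the promoter share was 26.5% and the median distance 6483 bp. LSD1-only sites kept the largest promoter share and the shortest distance in each of these, but with the stricter p the GFI1-only promoter share (18.0%, interval 10.4 to 29.5) was above the shared one (15.5%, interval 12.0 to 19.9) and the intervals overlapped. The rho at promoter sites was 0.40. In windows of 200 bp, AATCAC was in 8.83% of LSD1-only, 24.1% of shared and 17.6% of GFI1-only windows and AGATAA in 23.8%, 44.4% and 23.1%, and AGATAA was in 8.12% of LSD1-only windows at a −log10 p of at least 8. GFI1 peaks of THP1 cells lay at 2.79% of LSD1-only sites with summits at most 200 bp apart and at 3.30% at a −log10 p of at least 8, and SPI1 peaks at 0.371% with the former. Over all the gene lists, 54 genes had an LSD1-only and 7 a shared site, with 50 kb around the genes 83 and 12, and within 1 kb of transcript starts 22 and 1. Among all protein-coding genes, the LSD1-only and shared shares were 23.3% and 1.74% with 10 kb. They were 39.8% and 3.89% with 50 kb, and 9.19% and 0.315% within 1 kb of starts. With 50 kb, LSD1-only sites were at 8 of 15 myeloid transcription factors, 9 of 16 textbook GFI1 targets and 13 of 25 ribosomal protein genes. Shared sites were then at 2 of 20 erythroid transcription factors and 2 of 25 globin, heme and membrane genes. They were also at 3 of 15 cell cycle regulators and 1 of 25 ribosomal protein genes. Within 1 kb of starts, LSD1-only sites were at 4 of 20 erythroid and 1 of 15 myeloid transcription factors and 1 of 12 granule protein genes. They were also at 2 of 15 LSD1-CoREST genes and 9 of 25 globin, heme and membrane genes. The counts were 3 of 15 for cell cycle regulators and 1 of 25 for ribosomal protein genes. Shared sites were at 1 of 16 GFI1 targets and at 0 genes of each other list. Leaving out the start of chromosome 21 and the summit distance for the strongest peaks were chosen after seeing the data. Each protein had 1 library, so no setting shows how the lists would differ in a repeat. No paired analysis was possible because each protein has 1 library and no result comes from a test. The cause of these moves was not tested.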

Other observations

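The summit windows of the classes were also searched for 8-letter runs, in 100 bp at each summit and 2 kb away on either side. The runs were chosen after the sequences had been read, so the shares are a description with no test. At LSD1-only summits, AAAATGGG was in 6.51% of the windows (401 of 6158) against 0.715% in the background, and AAACTGAG in 6.63% against 0.909%. Both runs are also part of the consensus of MIR, an old family of short interspersed repeats, although no repeat annotation was used here. They were most frequent at the strongest LSD1-only sites. In the strongest of 10 groups of the LSD1 list, 18.4% of the LSD1-only windows held AAAATGGG (85 of 463, interval 15.1 to 22.1), against 1.85% in the weakest (12 of 650, interval 1.06 to 3.20). Windows at LSD1-only promoters (5.86%) and elsewhere (6.78%) had similar shares. Few of these peaks were shared with GFI1. Of the 405 LSD1 peaks with AAAATGGG, 4 had a GFI1 peak (0.988%, interval 0.385 to 2.51), against 6.28% of those without it (interval 5.70 to 6.92). Their median −log10 p was 15.4, against 11.3. At shared sites, 1.03% of the windows at LSD1 summits and 0 of 390 at GFI1 summits held it.

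A different run, GCATAGTA, was in 3.65% of the LSD1-only windows (225 of 6158) against 0.171% in the background, and occurs near the end of the LINE-1 retrotransposon. The LSD1 peaks that held it lay far from starts, with a median of 23148 bp and 2 of 225 at promoters. GFI1 peaks were called at 0 of these 225, for which the upper limit is 1.68%, while 6.17% of the other LSD1 peaks had one.

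GFI1-only summits stood apart in another way. The run TATTAATA was in 11.1% of their windows (12 of 108) against 0.463% in the background, and in 0 of 390 windows of shared sites and 0.146% of LSD1-only windows. Windows of 200 bp in which more than 25% of the 10-letter runs recur made up 13.0% at GFI1-only summits (14 of 108, interval 7.88 to 20.6) and 4.17% nearby (interval 2.21 to 7.73). At shared GFI1 summits they made up 2.05%, and at LSD1-only summits 1.51%. At shared GFI1 summits, the run AATCACTG, which extends the GFI1 core, was in 5.64% of the windows (22 of 390) against 0.256%, and AGATAAGG in 4.87% against 0.128%. AAACCACA, letters of a RUNX site, was in 4.62% against 0.513%. These runs were not confined to shared sites. At GFI1-only summits AATCACTG was in 4.63% (5 of 108) against 0.463%. AAACCACA was there in 5.56% (6 of 108) against 1.85%, and AGATAAGG in 1 of 108 against 0 of 216. At LSD1-only summits AATCACTG was in 0.536% against 0.373%. AGATAAGG was there in 2.57% against 0.309%, and AAACCACA in 1.72% against 0.641%. The part of read mapping in repeats in any of these shares was not tested.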
